A study of Mus musculus with 11 samples.

Results

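The miR-29 family is a set of microRNAs (miRNAs), short RNAs that bind messenger RNAs and repress them. It was followed here in livers of telomerase-knockout mice that either keep or lack the tumour suppressor p53. Its members were taken by name: every arm of miR-29a, miR-29b and miR-29c in the deposited count table. This gave 7 of the 1281 mature miRNA names listed. The 7 arms come from 4 hairpin precursors, each of which can yield a 5p arm and a 3p arm.

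Libraries were made from liver of C57/B6 mice without telomerase and with short telomeres, labelled G4. Of the 11 libraries, 5 were G4 p53+/+ (libraries 1 to 5), in which p53 is intact, and 6 were G4 p53-/- (libraries 6, 7, 8, 10, 11 and 12), in which p53 is lost. The telomerase knockout is thus shared by both groups, and no mouse with full-length telomeres is among these samples. The mice were untreated. The labels give no age or sex and do not say how p53 was removed. Nothing says that the libraries are of different animals, so every p here reflects only how far these samples spread. The comparison asked which miRNAs depend on p53. Whole liver was sampled, so a lower level in fewer cells and less RNA per cell cannot be told apart.

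As background, the 3p arms of miR-29 are the arms known to act, and they share a seed, the bases 2 to 8 that pair with a target. They are best known for repressing collagens and other matrix proteins. In liver they are made in hepatocytes and in stellate cells, the source of scar collagen, and their fall is a known feature of fibrosis. The family is also known to repress DNA methyltransferases, and it has been reported to rise with p53 activity after DNA damage, with the p53 phosphatase Ppm1d among its targets.

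The mature sequences are shown because the 3 acting arms differ by so few bases that reads are hard to assign between them. They are given 5′ to 3′ from RefSeq on GRCm38.p6, with the seed in capitals, and all 7 names matched. The prefix mmu, for mouse, is left out of names after this.
mmu-miR-29a-3p: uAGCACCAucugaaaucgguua
mmu-miR-29b-3p: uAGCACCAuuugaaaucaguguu
mmu-miR-29c-3p: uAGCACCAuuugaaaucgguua
mmu-miR-29a-5p: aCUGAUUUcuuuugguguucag
mmu-miR-29b-1-5p: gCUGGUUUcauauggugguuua
mmu-miR-29b-2-5p: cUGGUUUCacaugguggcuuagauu
mmu-miR-29c-5p: uGACCGAUuucuccugguguuc

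The seed AGCACCA was held by these 3 arms alone among 1679 mature names in the RefSeq table. Counting from 1 at the 5′ end, miR-29a-3p and miR-29c-3p differed at 1 position (C10U). miR-29a-3p and miR-29b-3p differed at 4 of 22 compared positions (C10U, G18A, U21G and A22U), and miR-29c-3p and miR-29b-3p at 3 (G18A, U21G and A22U). How many mismatches were allowed when reads were assigned was not given in the sources used here, so the split of reads between the 3p arms, above all miR-29a-3p and miR-29c-3p, is uncertain. Of the 5p arms, miR-29b-2-5p shared its seed UGGUUUC with 1 other name, miR-6338, and the seeds of the other 3 were found under no other name.

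The 4 hairpins lie in 2 pairs. Mir29a (chr6:31062660-31062747) and Mir29b-1 (chr6:31063023-31063093) are on the minus strand with 275 bases between them. GENCODE M21 annotates no other gene over Mir29a, and over Mir29b-1 only the end of the lincRNA Gm27019. Mir29b-2 (chr1:195037040-195037120) and Mir29c (chr1:195037547-195037634) are on the plus strand with 426 bases between them, inside an exon of the noncoding RNA A330023F24Rik and opposite an exon of Cd46. miR-29b-3p has the same sequence in both of its hairpins. Its count was listed under each with 0 differing values, so it cannot be assigned to either chromosome, whereas miR-29b-1-5p and miR-29b-2-5p each come from 1 hairpin. These 2 arms are alike too: over the 21 bases they share when miR-29b-2-5p is set 1 base in, they differed at 2 (U11C and U19C, positions in miR-29b-1-5p). The hairpins of miR-29a and miR-29c are printed with both arms in capitals, since their arms were used very differently in these livers.
Mir29a: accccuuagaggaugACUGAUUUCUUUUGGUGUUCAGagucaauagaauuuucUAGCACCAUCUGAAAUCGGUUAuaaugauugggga
Mir29c: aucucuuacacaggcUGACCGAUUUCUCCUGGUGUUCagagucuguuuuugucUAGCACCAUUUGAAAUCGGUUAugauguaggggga

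Messenger RNAs were not measured in this series, so the collagen link of the family was looked at in sequence only. The letters TGGTGCT, the reverse complement of the shared seed, were searched on the transcript strand of the longest annotated 3′ UTR of each protein-coding gene in GENCODE M21. They were found in 25 of 44 collagen genes (56.8%) and in 2734 of 20968 protein-coding genes (13.0%). Among genes with a 3′ UTR of 500 to 2000 bases the shares were 53.3% of 30 collagen genes and 10.5% of 8826 other genes. Of the fibrillar collagens, a group that includes those of scar fibres but is not limited to them, 9 of 11 held a match. So did 6 of 6 genes of type IV collagen, the sheet-forming collagen of basement membranes. Collagen 3′ UTRs held 0.693 matches per 1000 bases against 0.106 over all genes. Up to 4 matches stood in a single 3′ UTR, and 19 collagen genes, Col1a2 of type I collagen among them, had no match there.

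**Figure D1:**
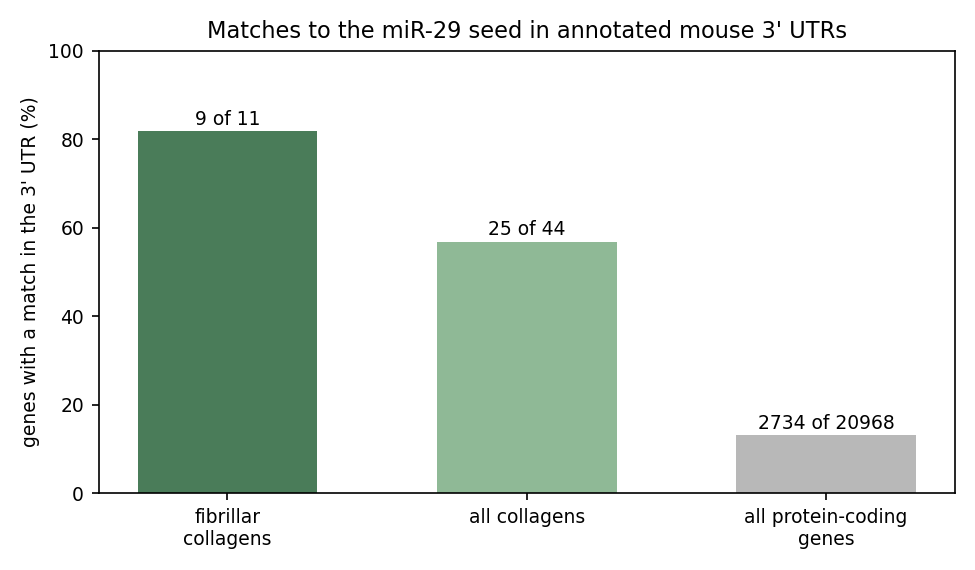
Share of genes (vertical axis, percent, starting at 0) whose longest annotated 3′ UTR holds the letters TGGTGCT, for 11 fibrillar collagen genes, 44 collagen genes and 20968 protein-coding genes, with the number of genes written over each bar. The bars stand at 81.8%, 56.8% and 13.0%; they describe the annotation, not a measurement in these livers.

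Examples from collagens of scar and basement membrane are given with the match in capitals. In Col1a1, the main chain of type I collagen, the match starts at base 919 of a 1423-base 3′ UTR, and in Col3a1, of type III collagen, at base 235 of 959. In Col4a1 it starts at base 33 of 1378, and in Col5a1, which holds 4 matches, the first starts at base 988 of 2498. On GRCm38 the stretches are chr11:94952523-94952547 (plus), chr1:45348967-45348991 (plus), chr8:11199759-11199783 (minus) and chr2:28037989-28038013 (plus).
Col1a1: gtgggaaggaatttcTGGTGCTata
Col3a1: ttcaaaatgtctcaaTGGTGCTata
Col4a1: gccaccgtcacaacaTGGTGCTact
Col5a1: ataactatgaacattTGGTGCTgaa

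Total counts per library ran from 1905609 to 6682492, and p53+/+ libraries 1 and 2 and p53-/- library 11 were the shallowest. The liver origin was checked on miR-122-5p, the hepatocyte miRNA, which made up 52.4 to 64.0% of counts in each library. Levels are normalised CPM, counts scaled to a fixed total of reads per library and then by edgeR's TMM factors. Changes are log2 fold changes of p53-/- minus p53+/+ from edgeR's quasi-likelihood test, adjusted over the 388 miRNAs that passed the filter on low counts. In that test 1 of the 388 miRNAs passed an adjusted p of 0.05 (0.258%), the p53 target miR-34a-5p, which fell by 3.33 on the log2 scale.

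By the reads as assigned, the family in these livers was miR-29a-3p almost alone. Of 187642 reads over all libraries assigned to the 7 arms, 98.0% were miR-29a-3p, and it was the most abundant member in 11 of 11 libraries. Its share of family reads was lowest in p53-/- library 11, at 97.1% with a 95% Wilson interval of 96.7 to 97.5%. The share was highest in p53+/+ library 2, at 98.9% with an interval of 98.7 to 99.0%. These intervals cover counting error only. Any reads of miR-29c-3p counted as miR-29a-3p would raise the share, and this was not tested. By mean level miR-29a-3p ranked 27 among the 388 tested miRNAs. The family as a whole took 0.335 to 0.804% of all miRNA counts in p53+/+ libraries and 0.283 to 0.336% in p53-/- libraries.

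The other arms had few assigned reads. Over all libraries miR-29c-5p followed at 31.1 CPM on average, then miR-29c-3p at 16.6, miR-29b-3p at 13.6, miR-29b-2-5p at 7.37 and miR-29b-1-5p at 3.51 CPM, while miR-29a-3p stood at 3784 CPM. The ranges of neighbours in this order mostly overlapped: miR-29c-3p lay between 10.5 and 23.5 CPM and miR-29b-3p between 8.92 and 20.9 CPM. The reads of miR-29a-3p were 172 to 343 times those of miR-29c-3p within a library, although the 2 arms differ at 1 base. Last came miR-29a-5p, the passenger arm of the most abundant hairpin, with 0 to 8 reads per library.

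The 2 strands of a hairpin were used unequally. Of the reads assigned to Mir29a, 183883 were 3p and 25 were 5p, so 99.99% carried the collagen seed. Among 289 hairpins with both arms listed and at least 100 reads, 41 had a smaller share from the minor arm. Mir29c went the other way, with 833 reads of the 3p arm and 1652 of the 5p arm, a 3p share of 33.5%. miR-29c-5p outnumbered miR-29c-3p in 10 of 11 libraries, the exception being p53+/+ library 2 with 51 and 52 reads. The ratio of 5p to 3p was 1.72 ± 0.66 (SD, n = 5) in p53+/+ and 2.19 ± 0.47 (SD, n = 6) in p53-/- livers, and the ranges overlapped. Since the reads of miR-29c-3p are uncertain beside miR-29a-3p, so is this ratio.

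miR-29a-3p, the arm given nearly all of the family's reads, had a lower mean without p53, but the difference did not pass the test. Its levels in p53+/+ libraries 1 to 5 were 5030, 6842, 3755, 3572 and 3885 CPM. In the 6 p53-/- libraries it ran from 2286 CPM in library 11 to 3647 CPM in library 10, with a median of 3189 CPM. The high values were those of p53+/+ libraries 1 and 2. After TMM scaling the groups overlapped narrowly: 4 of 5 p53+/+ libraries were above every p53-/- library, and 3 p53-/- libraries were above p53+/+ library 4. The mean was 4617 ± 1368 CPM with p53 (SD, n = 5) and 3089 ± 614 CPM without it (SD, n = 6). edgeR put the log2 fold change at -0.58 (SE 0.20), its 95% interval from -1.01 to -0.15 and its adjusted p at 0.174. With library totals in place of TMM factors the log2 fold change was -0.69 (unadjusted p 0.00537, adjusted p = 0.225 in edgeR). By that scaling p53+/+ library 4 stood just above every p53-/- library.

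All 6 p53-/- libraries were below the p53+/+ median of miR-29a-3p, as they were for 13.7% of tested miRNAs. Counting error was small for this arm, at 0.773% of the mean count, against a spread between libraries of 25.7% (edgeR's biological coefficient of variation). The size of the difference rested on 2 libraries: without p53+/+ libraries 1 and 2 the log2 fold change was -0.23 (unadjusted p 0.238, adjusted p = 0.657 in edgeR). These 2 held the highest levels of miR-29a-3p, so leaving them out had to shrink the difference. Left out singly, library 1 gave -0.54 and library 2 -0.42. With p53-/- libraries 6, 7 and 8 left out instead, the log2 fold change was -0.72 (adjusted p = 0.404 in edgeR). p53+/+ libraries 1 and 2 held 1965468 and 1905609 counts, the fewest of all. p53-/- library 11, with the lowest level of miR-29a-3p after TMM scaling, held 2202415. Before that scaling library 11 was not lowest: the family took 0.293% of its counts, against 0.283% in p53-/- library 7 and 0.286% in library 12. The part of depth in these values was not tested.

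**Figure D2:**
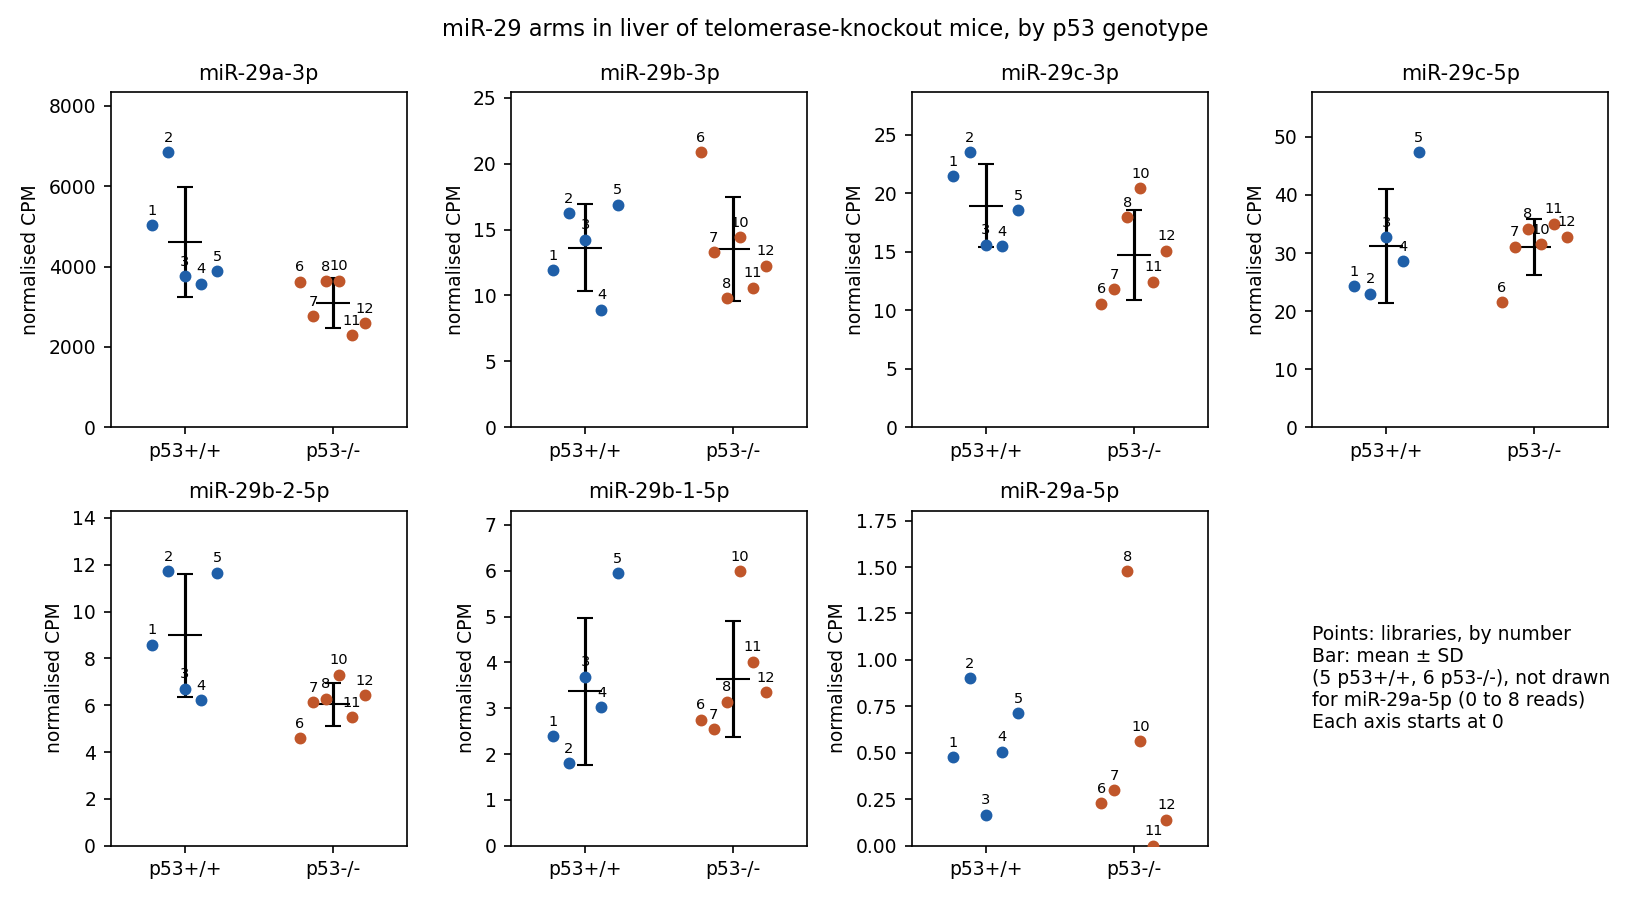
Normalised CPM (vertical axes, each starting at 0) of the 7 miR-29 arms in 5 p53+/+ and 6 p53-/- libraries. Points are libraries with their numbers and black bars the mean ± SD; miR-29a-3p lies between 3572 and 6842 CPM in p53+/+ and between 2286 and 3647 CPM in p53-/- livers, with libraries 1 and 2 on top.

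The other 3p arms carry the same seed. miR-29c-3p stood at 21.5, 23.5, 15.6, 15.5 and 18.5 CPM in p53+/+ libraries 1 to 5, and between 10.5 and 20.4 CPM in p53-/- libraries, with a median of 13.7 CPM. The groups overlapped, though 4 of 6 p53-/- libraries lay below every p53+/+ library. edgeR put the log2 fold change at -0.35 (SE 0.22), its 95% interval from -0.83 to 0.13 and its adjusted p at 0.460. Without p53+/+ libraries 1 and 2, the highest for this arm too, the log2 fold change was -0.13. For miR-29b-3p, whose 3′ end is known to direct the miRNA to the nucleus, p53+/+ libraries 1 to 5 held 11.9, 16.2, 14.2, 8.92 and 16.9 CPM, and p53-/- libraries 9.80 to 20.9 CPM with a median of 12.8 CPM. These groups lay over each other, and the log2 fold change was -0.01 (95% interval -0.54 to 0.52, adjusted p = 0.991 in edgeR). The interval leaves room for changes of either sign.

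Among the 5p arms, thought of as passengers, miR-29b-2-5p was the arm with a difference in size like that of miR-29a-3p. It held 8.58, 11.7, 6.70, 6.22 and 11.7 CPM in p53+/+ libraries 1 to 5 and 4.59 to 7.31 CPM in p53-/- libraries, with a median of 6.21 CPM. Libraries 1, 2 and 5 were above every p53-/- library, while libraries 3 and 4 lay inside the p53-/- range. Here edgeR gave a log2 fold change of -0.55 (SE 0.24), with -1.07 and -0.03 as its 95% bounds and an adjusted p of 0.240. It rested on 15 to 49 reads per library, and counting error alone was 17.4% of the mean count.

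Its counterpart from chromosome 6, miR-29b-1-5p, had a mean of 3.37 ± 1.60 CPM with p53 (SD, n = 5) and 3.63 ± 1.27 CPM without it (SD, n = 6). The log2 fold change was 0.05 (95% interval -0.68 to 0.79, adjusted p = 0.968 in edgeR), and its sign turned when single libraries were left out. The interval includes the -0.55 seen for miR-29b-2-5p, so a difference of that size cannot be told from 0 here. This arm had 4 to 32 reads per library, with a counting error of 24.3% of the mean count and a spread between libraries of 33.3%. The mean of miR-29c-5p was 31.2 ± 9.79 CPM with p53 (SD, n = 5) and 31.0 ± 4.89 CPM without it (SD, n = 6), and edgeR's log2 fold change was -0.01 (95% interval -0.48 to 0.45, adjusted p = 0.986 in edgeR). Its highest value was 47.3 CPM in p53+/+ library 5 and its lowest 21.6 CPM in p53-/- library 6. miR-29a-5p did not pass the filter and was not tested: its 0 reads in p53-/- library 11 allow up to 1.36 CPM before TMM scaling, and its largest level was 1.48 CPM, in p53-/- library 8.

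Over the family, 0 of 6 tested arms passed the adjusted threshold. In TMM-scaled levels the p53-/- range lay wholly below the p53+/+ range in 0 of 6, and in 1.03% of tested miRNAs. At an unadjusted p under 0.05, 2 of 6 were lower (miR-29a-3p and miR-29b-2-5p) and 0 were higher, where 9.02% and 8.25% of all tested miRNAs were. limma-voom called none of the 6, beside 1 of all 388 miRNAs (0.258%). DESeq2 called none of the 4 arms to which it gave an adjusted p, which leaves out miR-29b-1-5p and miR-29b-2-5p, beside 17 of the 250 miRNAs with one (6.8%). The smallest adjusted p in any alternative was 0.0699, for miR-29a-3p in DESeq2. Values were below 0 for 5 of 6 arms, with a median of -0.18, beside 51% of all tested miRNAs and a median of -0.01. Beside miR-29a-3p, its tested neighbour on chromosome 6, miR-29b-1-5p, gave 0.05. Beside miR-29b-2-5p, its neighbours on chromosome 1 gave -0.35 (miR-29c-3p) and -0.01 (miR-29c-5p).

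**Figure D3:**
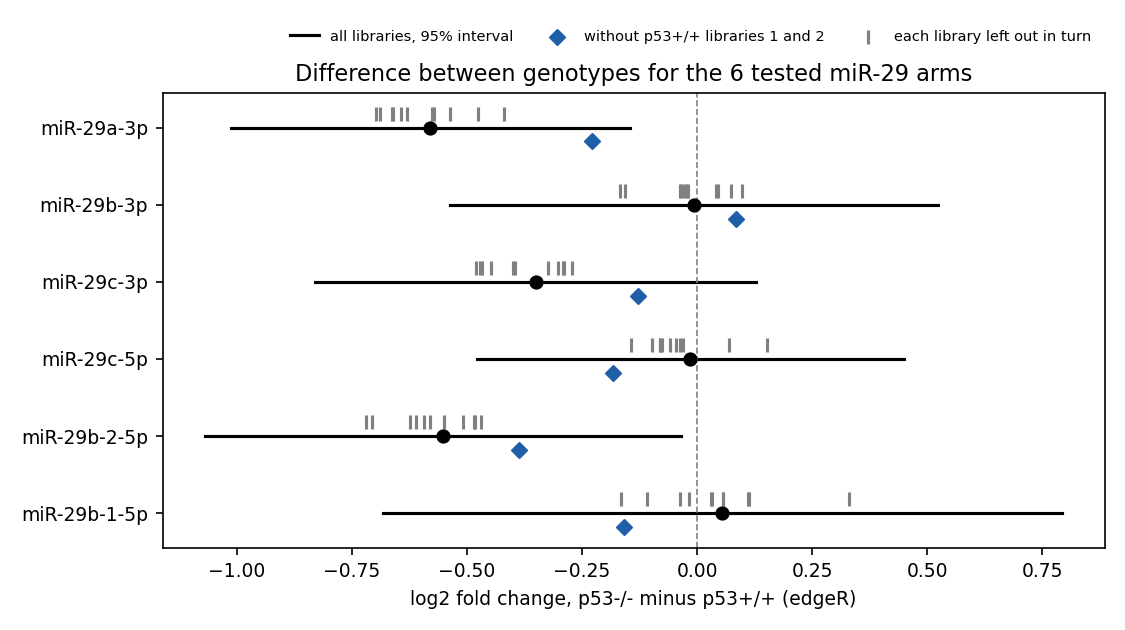
Log2 fold changes (horizontal axis, p53-/- minus p53+/+) of the 6 tested arms from edgeR, with 95% intervals as black lines, values with each library left out as grey ticks, and values without p53+/+ libraries 1 and 2 as blue diamonds. The intervals of miR-29a-3p and miR-29b-2-5p lie below 0 before adjustment. The diamond of miR-29a-3p stands at -0.23 against -0.58 with all libraries, and the 2 libraries left out were its highest.

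All 15 pairs of the 6 tested arms were compared over the 11 libraries, and 3 pairs passed adjustment by Pearson r and 4 by Spearman rho. Every pair shares library depth and scaling. Libraries were permuted across genotypes, so r and its p also take in any difference between the genotypes. Of the arms that come from the same primary transcript, in log2 CPM, miR-29b-2-5p and miR-29c-3p, which share the chromosome 1 transcript, had a Pearson r of 0.82 (permutation p = 0.00196, adjusted over 15 pairs of arms 0.0294) and a Spearman rho of 0.92 (permutation p = 0.00021, adjusted 0.00315). Without the 2 libraries farthest from the median r was 0.89, after centring on the genotype means 0.73, within the p53-/- libraries 0.86 and without p53+/+ libraries 1 and 2 0.72. miR-29b-2-5p and miR-29c-5p, also from that transcript, had an r of 0.20 (permutation p = 0.558, adjusted 0.836) and a rho of 0.05 (permutation p = 0.904, adjusted 0.989). For this pair r was 0.13 without the 2 farthest libraries and 0.30 after centring on the genotype means. It was 0.68 within p53-/- and 0.85 without p53+/+ libraries 1 and 2. miR-29a-3p and its chromosome 6 neighbour miR-29b-1-5p had an r of -0.40 (permutation p = 0.217, adjusted 0.541) and a rho of -0.24 (permutation p = 0.484, adjusted 0.807). Without the 2 farthest libraries that r was 0.04, so the negative value rested on them. It was -0.41 after centring on the genotype means, 0.12 within p53-/- and 0.27 without p53+/+ libraries 1 and 2. The arms of the Mir29c hairpin, miR-29c-5p and miR-29c-3p, had an r of 0.02 (permutation p = 0.959, adjusted 0.959) and a rho of -0.04 (permutation p = 0.923, adjusted 0.989), or an r of -0.12 without the 2 farthest libraries. For these arms r was 0.05 after centring on the genotype means. It was 0.54 within the p53-/- libraries and 0.59 without p53+/+ libraries 1 and 2, so the value near 0 rested on those 2 libraries.

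Of the pairs across chromosomes, miR-29a-3p and miR-29c-3p, which may share reads, had an r of 0.74 (permutation p = 0.00864, adjusted 0.0432) and a rho of 0.84 (permutation p = 0.00214, adjusted 0.0132). Here r was 0.58 without the 2 farthest libraries and 0.60 after centring on the genotype means. It was 0.39 within p53-/- and 0.49 without p53+/+ libraries 1 and 2. The 5p arms miR-29b-1-5p and miR-29c-5p had an r of 0.76 (permutation p = 0.00702, adjusted 0.0432) and a rho of 0.75 (permutation p = 0.0104, adjusted 0.0391). That r was again 0.76 without the 2 farthest libraries and after centring on the genotype means. It was 0.35 within p53-/- and 0.63 without p53+/+ libraries 1 and 2. miR-29a-3p and miR-29b-2-5p, the arms with the most negative differences, passed by rho (0.83, permutation p = 0.00265, adjusted 0.0132) but not by r (0.69, permutation p = 0.0177, adjusted 0.0662). Their r was 0.42 without the 2 farthest libraries and 0.44 after centring on the genotype means. It was 0.07 within p53-/- and 0.38 without p53+/+ libraries 1 and 2. The p53+/+ group alone, with 5 libraries, was too small for a correlation.

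p53-/- library 6 was at the edge of the range for several arms. It held the lowest level of miR-29c-3p (10.5 CPM), miR-29c-5p (21.6 CPM) and miR-29b-2-5p (4.59 CPM), the 3 arms made only from chromosome 1. It also held the highest level of miR-29b-3p (20.9 CPM). In the same library miR-29a-3p was at 3622 CPM, near the other high p53-/- values. miR-122-5p took 64.0% of its counts, the largest share of any library, and the part of this in the miR-29 values was not tested.

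The miRNAs whose levels were most like those of miR-29a-3p over the 11 libraries were found among 151 with a mean of at least 50 CPM, by Pearson r of log2 CPM. They were miR-26b-5p (r = 0.95, rho = 0.75), miR-126-5p (r = 0.93, rho = 0.75), miR-26a-5p (r = 0.92, rho = 0.70), miR-16-5p (r = 0.91, rho = 0.84) and miR-194-5p (r = 0.87, rho = 0.84), given as a description without a p. The median r over the 151 was -0.02. miR-126 is known from endothelial cells, miR-194 from hepatocytes and gut, and miR-16 as a brake on the cell cycle. Without p53+/+ libraries 1 and 2 these r were 0.91, 0.80, 0.86, 0.78 and 0.75. Each of these 5 was highest in p53+/+ library 1 or 2, and their log2 fold changes ran from -0.40 to -0.61, with adjusted p-values from 0.174 to 0.304 in edgeR.

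**Figure D4:**
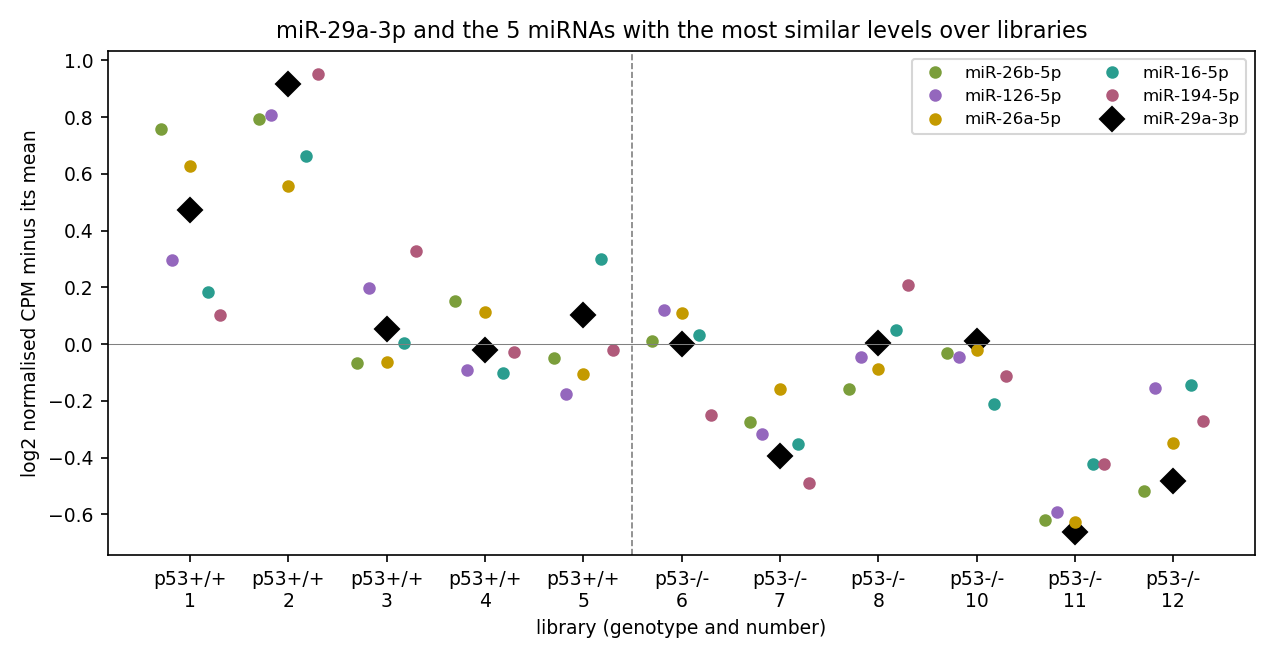
Log2 normalised CPM of miR-29a-3p (black diamonds) and of 5 other miRNAs (coloured points), each minus its mean over the 11 libraries, by library (horizontal axis, genotype and number; the dashed line parts the genotypes). All 6 were above their mean in p53+/+ libraries 1 and 2 and below it in p53-/- libraries 7, 11 and 12.

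Other miRNAs of fibrosis were read from lists, beside which 198 of all 388 tested miRNAs were below 0. Both arms of a listed miRNA were counted, whichever arm was the one reported. Of 26 tested arms of miRNAs reported to restrain fibrosis, other than miR-29, 0 passed and 16 were below 0, with a median of -0.03. Those with the smallest p were miR-194-2-3p (0.49), miR-30c-5p (-0.51), which is known to repress the matrix gene Ctgf, and miR-150-5p (0.68), each with an adjusted p of 0.174 in edgeR. The more abundant arm of miR-194, miR-194-5p, went the other way at -0.52 (adjusted p = 0.190 in edgeR). Of 21 tested arms of miRNAs reported to promote fibrosis, 1 fell, miR-34a-5p, and 15 were below 0, with a median of -0.11. miR-27a-3p and miR-27a-5p came next at -0.51 and 0.52 (adjusted p = 0.330 and 0.399 in edgeR). Of 21 tested arms of miRNAs reported to be raised by p53, 1 fell, again miR-34a-5p, and 18 were below 0, with a median of -0.24. After miR-34a-5p and miR-194-2-3p the smallest p in that list was that of miR-141-3p (-1.83, adjusted p = 0.174 in edgeR).

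Markers of liver cell types were set beside the miR-29 values. Mesenchymal and stellate markers summed to 9619 to 15694 CPM in p53+/+ and 10739 to 12643 CPM in p53-/- libraries, with 0 of 15 arms at 0, and p53+/+ library 1, high in miR-29a-3p, had the lowest sum. Their tested arms gave a median of -0.13, led by miR-145a-3p (-0.40), miR-145a-5p (-0.35) and miR-214-3p (0.30), none of which passed. Hepatocyte markers summed to 507651 to 707183 and 488365 to 845474 CPM, with 0 of 11 arms at 0. Most of that sum was miR-122-5p, with means of 535983 CPM in p53+/+ and 600373 CPM in p53-/- libraries. The 9 tested hepatocyte arms gave a median of 0.04, led by miR-194-2-3p (0.49), miR-194-5p (-0.52) and miR-148a-5p (-0.30), none of which passed. Both endothelial arms of miR-126 summed to 6012 to 11013 and 5772 to 10477 CPM. Endothelial markers were highest in p53+/+ library 2, where miR-29a-3p was highest, and second lowest in library 1. The part of these cells in the miR-29 values was not tested.

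Markers of other cells were summed in the same way. Leukocyte markers (0 of 10 arms at 0) summed to 193 to 322 CPM in p53+/+ and 239.8 to 362 CPM in p53-/- libraries, with miR-150-5p at 0.68, miR-342-5p at 0.48 and miR-223-3p at -0.23. Bile duct markers (2 of 10 arms at 0) summed to 819 to 2812 and 684 to 2278 CPM, with miR-429-3p at -1.20, miR-141-3p at -1.83 and miR-200a-3p at -0.59. Red cell markers (0 of 5 arms at 0) summed to 531 to 1407 and 594 to 1347 CPM, with miR-451a at -0.49 and the arms of miR-486 at 0.37 (5p) and 0.25 (3p). Pancreas markers (1 of 8 arms at 0) summed to 2.86 to 416 and 6.93 to 28.0 CPM, with miR-217-5p at -4.47 and miR-375-3p at -2.22. Their sum was lowest in p53+/+ library 1, at 2.86 CPM. It was highest in p53+/+ library 5, at 416 CPM, while p53+/+ libraries 2, 3 and 4 held 88.0, 84.8 and 17.3 CPM. The arms named for each list were those with the smallest p, and none passed in edgeR. Over all tested arms the median was 0.18 for leukocyte (8 arms), -0.24 for bile duct (7 arms) and 0.25 for red cell markers (5 arms). The most abundant bile duct arm, miR-200b-3p, gave -0.21. Only 2 pancreas arms were tested.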

How the data were processed

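Small RNA from 50 mg of liver was sequenced in 5 p53+/+ and 6 p53-/- libraries. The authors deposited a table of read counts with a row for each mature miRNA and hairpin. Per the submitters' processing notes the build was GRCm38 and limma was used. The aligner, counter and adapter handling: not given in the sources used here. CPM deposited by the authors were scaled to a fixed total over all rows of a library. Count columns of the library files and the series table had 0 differing values.

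Each of 1281 names was counted once, at its highest count over hairpins. edgeR 4.0.16 in R 4.3.3 was used (TMM, filterByExpr with genotype, quasi-likelihood F-test, Benjamini-Hochberg over 388 miRNAs), and the fit was tested on simulated data. Log2 CPM used a prior count of 2. Total counts were 1905609 to 6682492, so that a count of 0 allowed 0.449 to 1.57 CPM (3 counts). Such limits and intervals cover counting error only. Alternatives used DESeq2 1.42.0, limma 3.58.1, other scalings and filters, and fewer libraries. Correlations used 100000 permutations.

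The miR-29 arms and all lists were chosen with earlier results of these data known. Named miRNAs are the 7 arms, miR-34a-5p, the 5 most like the most abundant arm, and up to 3 arms per list with the smallest p. Collagen genes were taken by symbol, and the 4 printed are known scar and basement membrane collagens that hold a match.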

Additional observations from a re-analysis of the deposited data

Results flagged for a closer look

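Of 14 groups of values (7 arms in 2 genotypes) checked for a library far from the rest of its group, 1 stood out, where chance gives about 1 in 20. It was miR-29c-5p in p53-/- library 6, at 21.6 CPM, while the other p53-/- libraries lay between 31.1 and 35.1 CPM. The gap to its nearest neighbour was 0.706 of the range of the group. That library also held the lowest levels of miR-29c-3p and miR-29b-2-5p, the other arms made only from chromosome 1, and without it the log2 fold change of miR-29c-5p was 0.07.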

How the results depend on the processing

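Over the alternatives run (12 other tools, scalings, filters and sets of libraries, and 11 with a library left out), miR-29a-3p and miR-29c-3p stayed below 0 without passing in all 23, and miR-29b-2-5p was below 0 in the 22 where it was fitted, with no adjusted p in DESeq2 and none under the threshold elsewhere. The stricter filter removed miR-29b-2-5p and miR-29b-1-5p, and miR-29a-5p, below the main filter, has no value to compare. With a library left out, miR-29a-3p ranged from -0.70 to -0.42, miR-29c-3p from -0.48 to -0.27 and miR-29b-2-5p from -0.72 to -0.47. The other arms, near 0, changed sign. miR-29b-1-5p ranged from -0.17 to 0.33 with a library left out and was -0.16 without p53+/+ libraries 1 and 2. miR-29b-3p ranged from -0.17 to 0.10, and was 0.0033 in limma-voom, 0.026 without miR-122-5p in the table, 0.027 with a mean of at least 10 CPM and 0.085 without p53+/+ libraries 1 and 2. miR-29c-5p ranged from -0.14 to 0.15, and was 0.011 without miR-122-5p. It was 0.062 with only the p53-/- libraries of HA numbers above 500, which leaves out libraries 6, 7 and 8. The cause of these turns was not tested. Over all tested miRNAs edgeR called 0 higher and 1 lower miRNA, and DESeq2 called 8 higher and 9 lower, with no miR-29 arm among them. No paired analysis was possible because the labels link no p53+/+ library to a p53-/- library.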
